A study of Oryza sativa Indica Group with 24 samples.

Results

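The pre-anthesis sampling of a field drought experiment on rice was examined: leaves taken on day 55 after germination, after 17 days of treatment. It comprised 3 of the 24 arrays of the series, chosen by the day given in their labels and not by any measured value. The plants were Nagina 22 (N22), an indica-group cultivar known for drought tolerance. The stressed plots were held at 60% field capacity (mild), 40% (moderate) and 15% (severe), and the control plot at 100%. The rice was grown under a rain shelter, with irrigation set separately for each plot, and RNA came from 5 leaves a plot; the labels give leaves as the tissue, although their extraction text also speaks of panicles. Each array carried RNA of stressed leaves, labelled with Alexa 594, and RNA of control leaves of the same age, labelled with Alexa 488.

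Anthesis is the opening of the rice flower and the shedding of pollen. In the days before it the panicle and pollen form, and water shortage in that window is known to lower grain set. The leaf meanwhile closes its stomata, photosynthesises less and changes the expression of many genes, in part through the hormone abscisic acid. The array carried 7296 spotted cDNA clones, each at 2 spots. None of the clone names occurs among the 39387 genes of the reference table, so clones are given by name and no gene, role or sequence can be attached to them. For the same reason the leaf label could not be set against marker genes. The labels place day 55 before anthesis, whereas the image names in the scanner headers speak of the vegetative stage.

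Each stress level was 1 array of 1 plot. The test across the 3 levels therefore asks which clones differed from the control whatever the level. Its error is the spread between levels, not between plants. That spread was taken mainly from a value shared over all clones (23.2 prior degrees of freedom, against 2 from the clone itself). A small adjusted p is therefore not a measure of how closely a clone's own 3 arrays agreed. The labels do not say whether the 3 control RNAs were separate extracts. If they were one, a deviation of that RNA would appear on all 3 arrays. The dyes ran the same way on every array, so a dye effect on a clone would add to its ratio on all 3, and its part in the results was not tested.

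In stressed leaves, lower signals outnumbered higher ones. Of 7279 clones with a value on all 3 arrays, 978 were lower in stressed leaves (13.4% of those tested) and 199 were higher (2.73%), together 1177 clones or 16.2%. These calls had an adjusted p under 0.05 in limma's test of the mean log2 ratio of stressed over control leaves against 0. The median over all clones tested was 0.03 with a median standard error of 0.23 on the log2 scale. Of the lower clones, 963 had a negative ratio on all 3 arrays, and of the higher clones 197 had a positive one. The mean of these same ratios chose the clones, so the shared sign describes them and is no further evidence. The measured ratio was 2-fold or more below the control on every array for 248 clones and 4-fold or more for 31, but 131 of the 248 and 25 of the 31 were not above the empty spots in the stress channel on any array, so that these folds are not bounds. It was 2-fold or more above the control on every array for 6 clones, 5 of them with a saturated control channel. When the dye curve was fitted in each print block in place of once per array, 573 clones (7.87%) were called, 429 lower and 144 higher. Without the moderate array 556 were called, 532 lower and 24 higher.

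The stress channel was weak, which limits what many of the lower ratios can say. A clone counted as detected where its raw signal exceeded that of 95% of the empty spots. Detected clones made up 19.5% in the stress channel and 42.3% in the control channel on the mild array. On the moderate array the shares were 37.3% (stress) and 42.8% (control), and on the severe array 43.7% (stress) and 45.3% (control). Of the 978 lower clones, 488 were above the empty spots in the stress channel on no array, against 3252 of all 7279 clones tested. In the control channel 550 of the 978 were above them on all 3 arrays. Of the 199 higher clones, 51 were above the empty spots in the stress channel on no array and 66 in the control channel on no array, and 73 were above them in at least 1 channel on every array. Duplicate spots of a clone correlated at 0.906, 0.899 and 0.888 on the mild, moderate and severe arrays, across clones within each array.

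The 12 named clones with the lowest measured ratios all belonged to the largest clone set, whose names start with NL and a plate number. Their mean log2 ratios ran between -3.13 and -2.77, with adjusted p between 2.4e-09 and 6.2e-08 (limma), and no single array gave a value above -1.77. Clone NL43_E01 had the lowest mean. Its normalised intensity was 2064, 1514 and 1225 in mildly, moderately and severely stressed leaves, against 15900, 12700 and 12630 in control leaves on the same arrays. The clone was picked for its low ratio, so the gap between these values describes it and is no further evidence. Before normalisation its control values were 24106, 28375 and 21266 on the mild, moderate and severe arrays. Its log2 ratios were -2.95, -3.07 and -3.37 on the mild, moderate and severe arrays, with a mean of -3.13 ± 0.22 (SD over 3 levels; adjusted p = 2.4e-09, limma). Since the stress signal was not well above the empty spots on any array, a floored fold is given. For NL43_E01 it was 6.64-fold lower in stressed leaves. Floored folds set each array's stress signal to the higher of its own value and the lowest value among clones above the empty spots. That lowest value can lie under the level of clones just above the empty spots, so a floored fold is not a lower bound. On the severe array NL23_H11, below the limit, entered with its own 587.5, whereas NL12_C10, just above it, had 1762.

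Clone NL12_E09 had normalised intensities of 749.2, 1434 and 1182 in stressed leaves, against 9834, 8969 and 8211 in control leaves. It too was dim under stress on all 3 arrays, and its floored fold was 4.42-fold lower. NL18_A09 had measured log2 ratios of -4.02, -2.05 and -2.81 on the mild, moderate and severe arrays, and NL10_H07 had -4.04, -1.77 and -2.95. On the mild array the stress signal of both clones was below the limit set by the empty spots, so the levels cannot be ranked by these ratios. NL23_H11 had -2.78, -2.13 and -3.62, and NL39_G01 had -2.38, -2.55 and -3.47. NL23_H11 was dim under stress on all 3 arrays, and NL39_G01 on all but the moderate one. In all, 7 of the 12 were not above the empty spots under stress on any array, and their floored folds lay between 3.64-fold and 6.64-fold. All 12 were also lower with the curve fitted per print block, where NL43_E01 had -2.48 (adjusted p = 0.000581, limma).

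**Figure D1:**
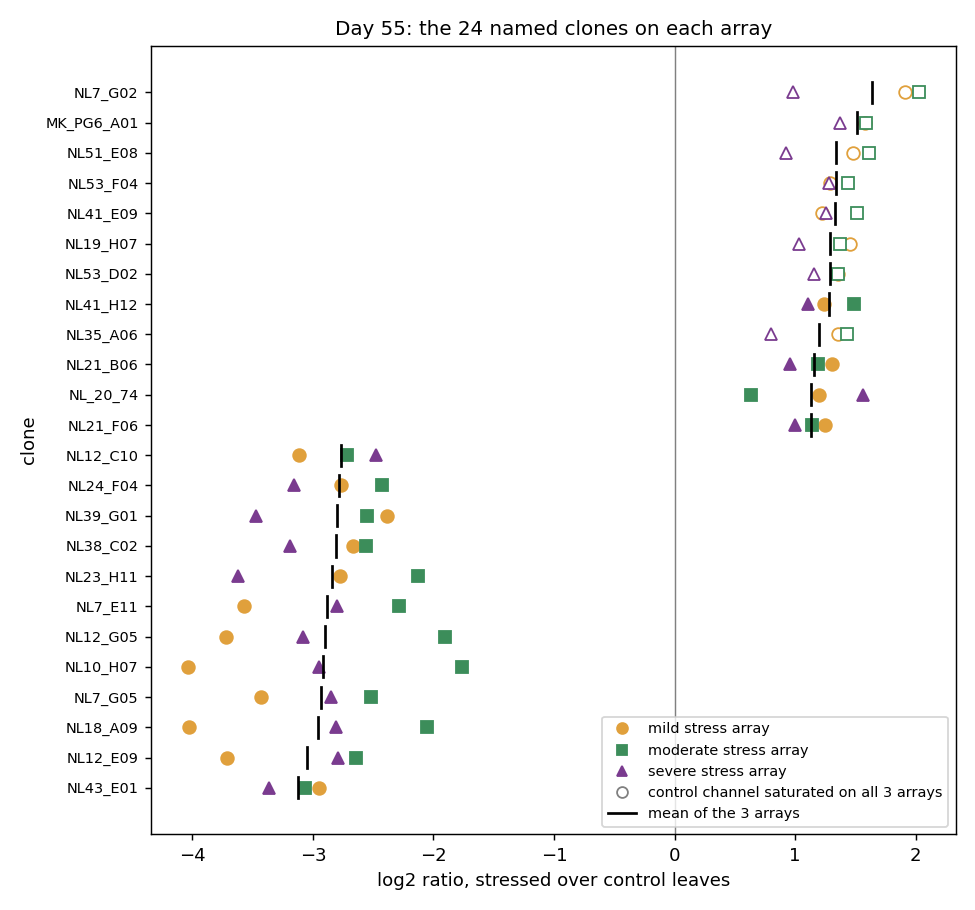
Log2 ratio of stressed over control leaves (x axis) of the 12 highest and 12 lowest named clones of day 55 (y axis), 1 point per array and a bar at the mean. All points of the lower clones lie at or below -1.77; open points mark the 8 higher clones whose control channel was saturated on all 3 arrays.

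The higher side was smaller, and its top consisted largely of saturated clones. Of the 12 clones with the highest mean ratios, 8 had a control spot at the scanner's maximum of 65535 on all 3 arrays. Their control level is a lower limit and their ratio an upper limit. No fold is given for these 8, and whether they were higher in stressed leaves is not settled. Clone NL7_G02 had raw intensities of 61249, 64895 and 38531 in stressed leaves, against 65535 on each array in control leaves. Before normalisation its stress signal was thus below the control signal on every array, and its log2 ratios of 1.91, 2.03 and 0.98 came after the dye curve. MK_PG6_A01 had the same 65535 in the control channel and normalised log2 ratios of 1.58, 1.59 and 1.38. NL51_E08, NL53_F04, NL41_E09, NL19_H07, NL53_D02 and NL35_A06 were the other 6. Across the array, 35 clones were saturated in the control channel on all 3 arrays, of which 18 were called higher and 3 lower. The 18 include the 5 noted above, and their direction is not settled either.

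**Figure D2:**
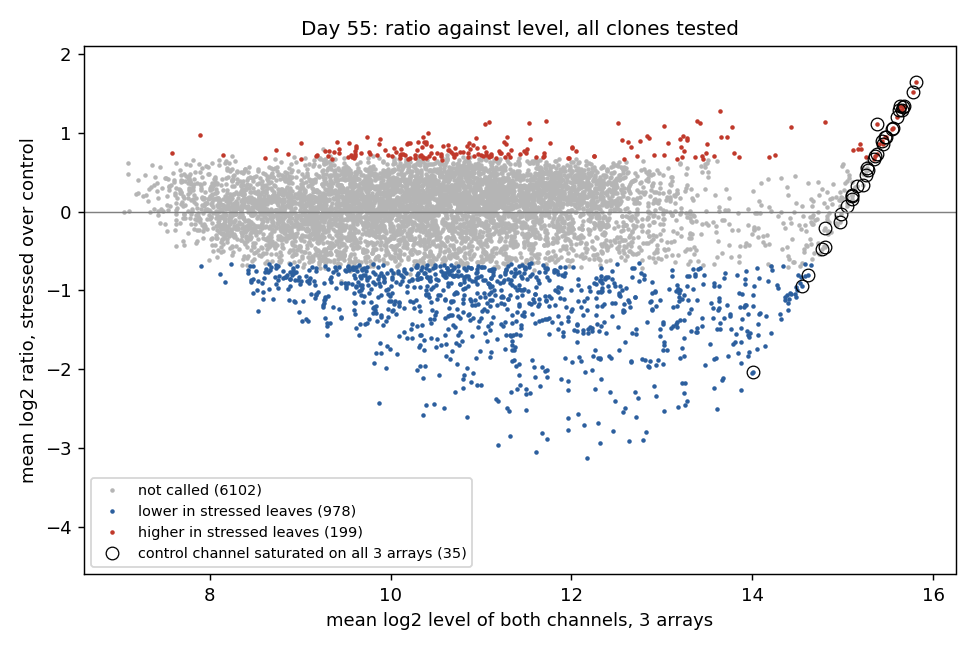
Mean log2 ratio of stressed over control leaves (y axis) against the mean log2 level of both channels (x axis) for the 7279 clones tested on day 55. The 35 clones saturated in the control channel (circles) lie on a rising line at the bright end, and 18 of them are among the 199 called higher.

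The remaining 4 of the 12 higher clones stayed below 0.9 of the scanner's maximum and were above the empty spots in both channels on all 3 arrays. NL41_H12 had normalised intensities of 29690, 18150 and 14530 in stressed leaves, against 12580, 6474 and 6752 in control leaves. Its raw intensities were 14436, 9744 and 9793 in stressed leaves, against 26055, 16140 and 11823 in control leaves. After the dye curve stressed leaves were higher on each array. Its log2 ratios were 1.24, 1.49 and 1.11, with a mean of 1.28 ± 0.19 (SD over 3 levels; adjusted p = 0.000181, limma), or 2.42-fold. NL21_B06 had normalised intensities of 26180, 16850 and 9329 in stressed leaves, against 10590, 7368 and 4802 in control leaves. It was 2.22-fold higher on average. Both channels of this clone were brightest on the mild and dimmest on the severe array. NL21_F06 was 2.19-fold higher (adjusted p = 0.000684, limma), with log2 ratios of 1.25, 1.14 and 1.00. NL_20_74 had its highest ratio, 1.56, on the severe array, with 1.20 on the mild and 0.64 on the moderate one. These 4 were also called higher with the curve fitted per print block. Before normalisation the stress signal of each of the 4 was below its control signal on every array. The median raw signal over all clone spots was also lower in the stress channel: 1008 against 2807 (mild), 1418 against 4550 (moderate) and 1136 against 2887 (severe).

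Another 6 unsaturated clones, MK_PG8_B10, NL19_C08, NL19_E10, NL41_D04, NL21_C10 and NL21_F10, come next among the clones below 0.9 of that maximum and were picked out after their values were seen. Their mean log2 ratios ran between 0.95 and 1.12. NL19_E10 had normalised intensities of 49950, 29500 and 22120 in stressed leaves, against 20070, 16140 and 10890 in control leaves. Before normalisation its stress signal too was below its control signal on every array. All of these clones but MK_PG8_B10 were also called higher per print block.

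Ratios were not larger at more severe stress, and the medians ran the other way. The 199 higher clones had median log2 ratios of 1.13, 0.89 and 0.41 on the mild, moderate and severe arrays. In 102 of them the ratio was highest on the mild and lowest on the severe array, and in 0 of 199 was the order the other way. The 978 lower clones had medians of -1.28, -1.06 and -0.999. Among these, 122 fell more at each step of stress and 237 fell less. All 7279 clones tested leaned the same way: the ratio lay farthest from 0 on the mild array in 3497, the moderate in 2458 and the severe in 1324. For the higher clones these counts were 129, 65 and 5, and for the lower clones 423, 253 and 302. The mild array had the widest ratios over all clones (SD 0.78, against 0.64 on the moderate and 0.58 on the severe array) and the weakest stress channel, so level, array and plot cannot be told apart. On the mild array 5.3% of all clones had a measured ratio 2-fold or more above the control and 12.4% one 2-fold or more below it. The shares were 2.26% higher and 8.06% lower on the moderate array, and 0.206% higher and 7.68% lower on the severe one.

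A line through the 3 levels left 1 residual degree of freedom and called 7 clones, 0.0962% of those tested (limma). They are named here after their values were seen, since the rule for named clones covers no slope. None of the 7 was measured well on every array. MK_PG9_B03 and MK_PG9_D09 were above the empty spots in neither channel on any array, and NL12_C08 and NL7_H07 in the control channel on 1 array and in the stress channel on 0. MK_PG10_F05 was above them on 1 array in each channel, and its mild ratio of 2.68 came from 1 spot. The mild ratio of NL7_G04, 2.13, averaged spots at 0.93 and 3.32. NL44_E03 was saturated in the control channel on all 3 arrays. Their slopes are therefore not given. No clone was called with the curve fitted per print block (353 at an unadjusted p under 0.05) or without background correction (372).

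The calls were unevenly placed on the slide. With 1 curve per array, 23.1% of the clones in print row 3 and 22.2% in print row 2 were lower in stressed leaves, against 4.48% in print row 8. The median log2 ratio of a row ran between -0.23 in row 2 and 0.23 in row 7. With a curve per print block, 10.2% were lower in row 3 and 2.78% in row 8. Of the 978 lower clones 387 were called lower again, 915 kept a negative ratio and 4 were called higher. Of the 199 higher clones 44 were called higher again and 198 kept a positive ratio. Of the 248 clones with a measured ratio 2-fold or more below the control on all 3 arrays, 180 were called lower again.

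**Figure D3:**
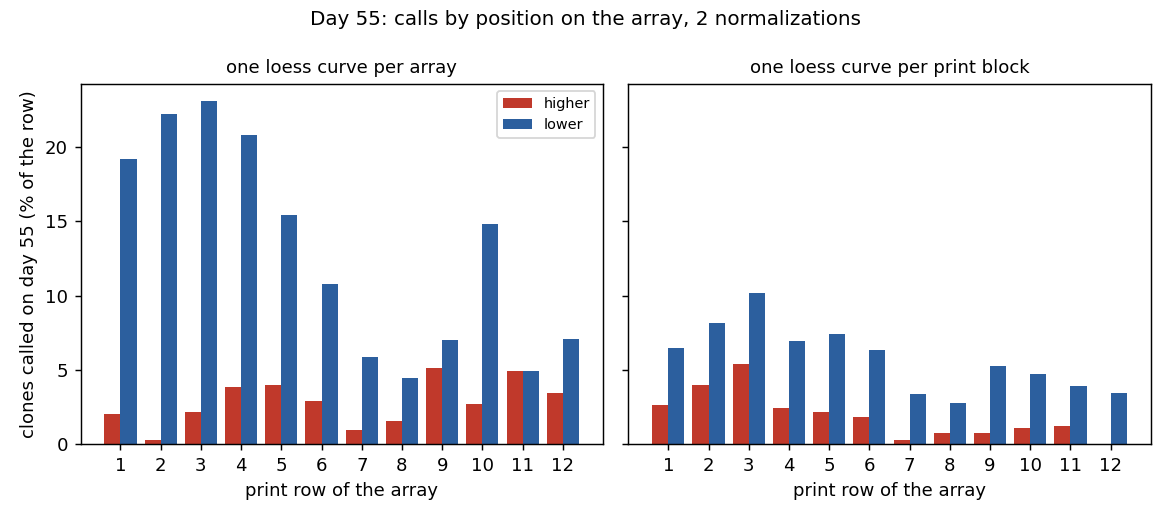
Share of clones called higher and lower in stressed leaves on day 55 (y axis, percent of the row) by print row of the array (x axis), with 1 loess curve per array and with 1 per print block. The share called lower in row 3 is 23.1% with the single curve and 10.2% with a curve per block.

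Clone sets differed in their shares and also in where they were printed. Among NL clones 16.7% were lower and 2.43% higher; among the clones whose names start with NL_, 9.59% and 0.92%; and among MK clones 5.57% and 6.35%. Within print rows 9 and 10, which hold both, 4.49% of 334 MK clones and 13.1% of 946 NL_ clones were lower, and 11.7% of MK and 1.16% of NL_ clones were higher. Per print block, 3.22% of MK, 7.03% of NL and 4.47% of NL_ clones were lower. Higher per print block were 0.609% of MK, 2.69% of NL and 0.854% of NL_ clones, so the larger higher share of MK clones did not hold there. Plates of 96 NL clones reached 40 lower clones (NL22) and 37 (NL20), with 0 higher on either. The labels do not say what the sets are.

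The clones picked on day 55 were followed over the other days as a description, since day 55 chose them. The medians of the per-clone means of the 978 lower clones were -0.26, -0.58, -1.08, 0.28, 0.15, -0.21 and -0.79, in the order of days 45, 52, 55, 59, 63, 67 and 71. On day 52, 86.6% of them were below 0, against 43.5% of the clones not called on day 55. On day 59 the shares were 24.2% and 54.7%. For the 199 higher clones the medians were 0.27, 0.20, 0.76, -0.21, -0.11, 0.24 and 0.24 on the same days. Among the clones not called on day 55 the median stayed between -0.04 and 0.09. NL41_H12, NL21_B06 and NL21_F06 had mean log2 ratios of 1.53, 1.39 and 1.32 on day 45, and -0.23, -0.07 and -0.41 on day 52. They were again positive late in the series, with 0.72, 0.79 and 0.91 on day 67 and 0.87, 0.81 and 0.88 on day 71.

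**Figure D4:**
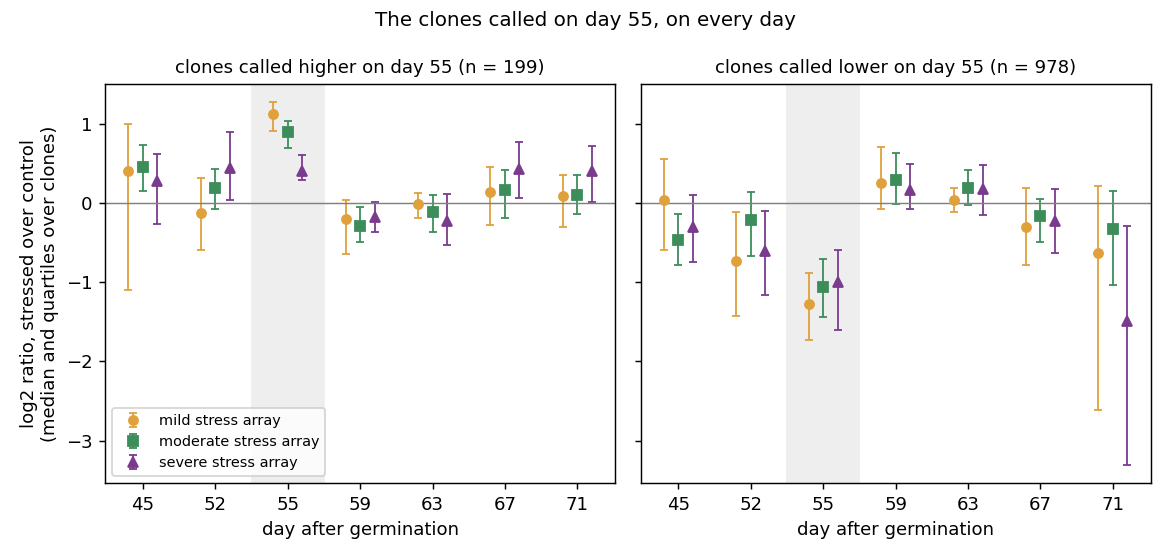
Log2 ratio of stressed over control leaves (y axis; median and quartiles over clones) by day after germination (x axis) and stress level, for the clones called higher (left) and lower (right) on day 55, which is shaded because it chose the clones. The lower clones have medians between -1.28 and -0.999 on day 55 and between 0.17 and 0.29 on day 59.

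Set against the vegetative days 45 and 52, few clones were called for the day 55 ratio. In a fit over the 12 arrays of days 45, 52, 55 and 59, with 7132 clones measured on all, 53 clones (0.743%) had a lower ratio on day 55 and 2 (0.028%) a higher one, together 0.771% (limma). The 53 had a median log2 ratio of -2.25 on day 55, against -0.39 on day 45 and -0.72 on day 52. They were chosen by this difference, so these medians only describe them. NL11_C07 had the lowest measured difference, with a mean log2 ratio of -2.15 on day 55, against -0.07 on day 45 and 0.29 on day 52. The difference was -2.26 ± 0.48 (SE; adjusted p = 0.0332). Its mild stress signal was not above the empty spots, and with a curve per print block its day 55 ratio was -0.83 (adjusted p = 0.215, limma), which ends its day 55 call. NL18_A09, NL43_E01 and NL24_F04 followed, with measured differences of -2.12, -2.08 and -2.07; NL18_A09 and NL43_E01 were dim under stress on all 3 arrays of day 55. The 2 higher clones, NL53_D02 and MK_PG6_A01, were both saturated in the control channel on all 3 arrays of day 55. Their day 55 ratios are thus upper limits, and neither the size nor the direction of their difference is settled. The count changed with the arrays used: it was 5 without the mild array of day 55, 25 without the moderate and 0 without the severe one (887 at an unadjusted p under 0.05). With day 52 alone as the earlier day it was 0 (819 unadjusted).

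Against day 59 the difference was wider. In the same fit 700 clones (9.81%) had a lower ratio on day 55 and 99 (1.39%) a higher one, together 11.2% (limma). The 700 had a median log2 ratio of -1.12 on day 55, against 0.59 on day 59. Since this difference chose them, the gap describes the 700 and is no further evidence. NL10_A01 had -2.49 on day 55, against 0.97 on day 59, a measured difference of -3.46 ± 0.47 (SE; adjusted p = 0.000261); its stress signal was above the empty spots on the moderate and severe arrays of day 55 and not on the mild one. NL25_F05, NL35_A09 and NL43_E01 had measured differences of -3.54, -3.50 and -3.40, but were dim under stress on all 3 arrays of day 55. On day 55 itself the floored folds of NL25_F05 and NL35_A09 were 1.90-fold and 1.96-fold lower in stressed leaves, so their order among the clones is not settled. Among the higher ones, NL_20_74 had 1.13 on day 55, against -1.40 on day 59, a difference of 2.53 ± 0.36 (SE; adjusted p = 0.000267). NL14_D06, NL21_F10 and NL21_B06 differed by 1.99, 1.86 and 1.83. Images of days 45, 52 and 55 were quantified in one session and those of day 59 onward in another, so day 55 against day 59 and the session cannot be told apart. The count was 393 without the mild and 519 without the moderate array of day 55.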

How the data were processed

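Per the file headers, the authors quantified the array images with QuantArray and deposited, for each spot, an intensity and a local background in both channels. Per the labels' protocols, the first channel is control (Alexa 488) and the second stress (Alexa 594). The authors also deposited a table of log2 ratios, used here as an alternative for differences between days: it is centred per clone within each stress level (the mean over days is at most 0.0025), with its scale and direction not stated. Centred within level, its moderate column of day 55 correlated at 0.711 with the scanner ratios of day 52 and at 0.119 with those of day 55, so the moderate columns were left out. The mild and severe columns of day 55, which were kept, correlated at 0.817 and 0.496 with their scanner ratios of that day. All 24 columns of the table matched a sample (0 unmatched).

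Intensities were background-corrected (normexp, offset 50) and normalised by loess within each array (span 0.3, 4 iterations, clone spots only), and both spots of a clone were averaged. Spots that the files mark to be ignored were dropped, and 17 clones without a value on every array of day 55 were left out (164 in the fit of 4 days). The mild array of day 45 holds pixel sums and was divided by 80. Single-channel levels are loess- and Aquantile-normalised. Tests used limma 3.58.1 in R 4.3.3 (lmFit, eBayes, Benjamini-Hochberg, 0.05); figures used matplotlib 3.10.9. The number of arrays limits the precision. The p-values rest on the spread between these arrays, which limma draws towards a value shared over all clones. Simulated ratios carried independent normal noise per clone and skipped normalisation. They held no print-row shift, dye effect, empty-spot limit or saturation, so their counts do not cover errors from these. On simulated ratios for day 55 stress over control (7279 clones), 82 of 100 changes of 1 and 100 of 100 changes of 2 on the log2 scale were recovered, with 9 false calls. For day 55 minus the vegetative days these were 33 and 98 (15 false), for day 55 minus day 59 19 and 91 (5 false), and for the slope 0 and 6 (0 false), so small differences between days and most slopes would be missed.

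Named clones were the 12 highest and 12 lowest that passed the test, with 1 sign and a signal above the 95th percentile of empty spots in at least 1 channel on all 3 arrays, and the 4 highest and 4 lowest of each day difference. The comparisons and this rule were chosen with earlier results of these data known. Alternatives covered background, normalisation, filters, weights, saturation and each array left out.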

Additional observations from a re-analysis of the deposited data

Results flagged for a closer look

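The day 55 ratio differed from that of the vegetative days by limma's test of the difference for 55 clones, and from that of day 59 for 799. Against the vegetative days the named differences on the log2 scale were 1.40 for NL53_D02, 1.21 for MK_PG6_A01, -2.26 for NL11_C07, -2.12 for NL18_A09, -2.08 for NL43_E01 and -2.07 for NL24_F04. The control channel of NL53_D02 and MK_PG6_A01 was saturated on all 3 arrays of day 55, so neither size nor direction of these 2 differences is settled. NL53_D02 also lost its day 55 call with a curve per print block (adjusted p = 0.0565, limma). Against day 59 they were 2.53 for NL_20_74, 1.99 for NL14_D06, 1.86 for NL21_F10, 1.83 for NL21_B06, -3.54 for NL25_F05, -3.50 for NL35_A09, -3.46 for NL10_A01 and -3.40 for NL43_E01. NL18_A09, NL25_F05, NL35_A09 and NL43_E01 were not above the empty spots in the stress channel on any array of day 55, so their differences are measured values and not sizes of a change.

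The control spots (144 spots under 48 names) entered no comparison, and 7 names were above the empty spots in both channels on all 3 arrays of day 55. These 7 had mean log2 ratios of stressed over control between -0.23 and 0.35. Another 6 names had a measured ratio 2-fold or more below the control on every array, with a stress signal above the empty spots on 1 array each: CONT_uYIR3 had -2.93, -2.52 and -2.53, and CONT_rYIR07 had -2.07, -2.47 and -2.24, on the mild, moderate and severe arrays. CONT_rYIR08 had 1.96, 1.69 and 1.08. The labels and headers do not say what these spots hold or whether matching RNA was added to the samples.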

How the results depend on the processing

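For day 55 stress over control, 1177 clones became 573 per print block, 719 when only the 2162 clones above the empty spots were tested, and 704 with the spread pooled over days 45 to 71; leaving out 1 array gave 556 to 1126. Median centring, no background correction, offset 10, scaling, array weights and leaving out saturated spots kept the count within 1.5 times, as did leaving out spots above 0.9 of the maximum, added after seeing the data. The higher side held less well. Of the 199 higher clones, 106 were called higher again with median centring and 87 with scaling. Without the mild array it was 56 of them, and without the moderate array 24. The 12 lower named clones passed under every alternative. Of the 12 higher ones, 10 passed per print block and 7 with the pooled spread; 8 have no value without saturated spots.

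For day 55 minus the vegetative days, 55 became 5 per print block (1 higher, 4 lower), 15 with median centring, 126 without background correction, and 0 with day 52 alone or in the authors' value table (517 at an unadjusted p under 0.05 by limma). Chosen after seeing the data, the mild array of day 45 as deposited gave 33 and the mild and severe scanner arrays 2. Leaving out 1 array of day 55 gave 0 to 25. For day 55 minus day 59, 799 became 486 per print block (147 higher, 339 lower), 1230 with median centring, 1254 without background correction and 290 from the mild and severe scanner arrays, added later; leaving out 1 array gave 393 to 686. The authors' table gave 833, with a median difference over all clones of 0.15, against 0.04 here. The slope's 7 calls became 0 per print block, 2 with median centring and 0 without background correction.

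Replicate numbers stand for stress levels. With level as a replicate block the counts were 46 (vegetative days) and 782 (day 59). Same-level arrays did not deviate together throughout. Their correlations with day 55 were 0.175, 0.22 and -0.01 on day 52 for mild, moderate and severe. On day 45 they were -0.356, -0.12 and -0.08, and on day 59 -0.01, 0.06 and -0.04, in the same order. Weak stress signal and saturated control spots limit the ratios at both ends of the intensity range. The causes of these shifts were not tested.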
